A study of Rattus norvegicus with 21 samples.

Results

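The genes described here move calcium, sodium and potassium ions through the heart muscle cell and pass the electrical impulse from cell to cell. They were chosen by name, as 39 symbols of calcium handling, ion channels and conduction, and 36 of these had a row among the 17085 gene symbols measured. Cacna1g, Kcnd2 and Kcnip2 were not analysed here. Sln was counted only 7 times in all 21 libraries and could not be tested, so 35 of the 39 genes stood among the 11742 genes tested. By role, the 35 comprised 12 genes of the calcium store, 4 of calcium entry and exchange, 2 that accompany sodium transport, 11 of potassium channels, 2 pacemaker channels, 1 gap junction gene, and 3 of signalling and anchoring.

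In a heart muscle cell each beat starts with an action potential, in which sodium entry is followed by calcium entry through L-type channels and by potassium exit, which restores the resting voltage. The entering calcium opens the ryanodine receptor of the sarcoplasmic reticulum, the internal calcium store, and the released calcium drives contraction. The pump SERCA then returns calcium to the store under the control of phospholamban, and gap junctions of connexin 43 carry the impulse to the next cell.

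RNA was sequenced in bulk from rat heart tissue labelled as infarct zone, in 7 groups of 3 libraries from the Sprague Dawley strain, to follow what coronary ligation and the timing of its release do to the heart. Sham hearts were the controls, and their libraries carry the same tissue label. The left anterior descending coronary artery was tied off for 24 h in MI24h, for 1 h in MI1h_R and for 6 h in MI6h_R, the last 2 followed by reperfusion, and tissue was collected 24 h after the infarction. MI24h_F, MI1h_F and MI6h_F had the same lengths of ligation with an added F, and the titles of the last 2 give 23 h and 18 h of reperfusion. What F stands for is not written out in any label, although the series' design speaks of fenofibrate, a lipid-lowering drug that activates PPARα, given beforehand. No Sham group carried F, so against Sham the injury and F cannot be told apart in those 3 groups. Sex and age were not given in the labels, nor whether the 3 libraries of a group came from separate animals, so p-values measure the spread between libraries, which may be technical.

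Total counts ran from 12208041 to 18393795 per library. Levels are given as CPM, read counts scaled to a common library size adjusted with TMM, a factor that was 0.535 to 0.677 in Sham and 0.996 to 1.17 in the injured groups. The tissue label was checked on 12 cardiomyocyte markers, of which 10 had a row (Ttn and Ldb3 had none). Their summed level was 45040 to 90130 CPM in Sham, 5368 to 8574 CPM in MI24h and 1777 to 3652 CPM in MI24h_F. All 10 fell in MI24h against Sham, with a median log2 fold change of -3.16. Markers of other cells were also measured. Those of neutrophils summed to 20.9 to 71.9 CPM in Sham and 436 to 2724 CPM in MI24h, and those of fibroblasts to 8043 to 9176 CPM and 1511 to 2573 CPM. The 6 nodal and conduction markers summed to 25.6 to 34.7 CPM in Sham. The 4 of 5 atrial markers with a row summed to 299 to 1515 CPM in Sham and 1486 to 2245 CPM in MI24h, there mostly from Nppa, with Bmp10 at 0 in every Sham library. In bulk tissue, fewer cells of a type and less RNA per cell cannot be told apart. The Sham library numbered 11 stood apart in several of the genes. Abcc9 was there 6.28 times, Ank2 4.20 times, Slc8a1 3.395 times and Ryr2 3.14 times the mean of the other Sham libraries. All genes tested were also split into 5 sets by relative length, shortest first. The median log2 ratio of Sham 11 to the other Sham libraries rose over these sets, at -0.532, -0.348, -0.188, -0.011 and 0.321. The longest set held 10 of the 35 genes. The relative lengths of Abcc9, Ank2, Slc8a1 and Ryr2 were 0.647, 1.97, 1.45 and 4.30. The cause of the differences in Sham 11 was not tested.

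The sequences before the transcription start are shown for 4 genes whose levels the results turn on: Pln and Tecrl, which fell furthest in the calcium store, Hcn2, a pacemaker channel that fell with them, and Kcnj2, which did not. RefSeq's table of promoters (build GRCr8) held 27 of the 39 genes. The 250 bases before each start were searched on both strands for 8 motifs, and matches stand in capitals.

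Pln (GRCr8 chr20:33172244-33172493, plus strand): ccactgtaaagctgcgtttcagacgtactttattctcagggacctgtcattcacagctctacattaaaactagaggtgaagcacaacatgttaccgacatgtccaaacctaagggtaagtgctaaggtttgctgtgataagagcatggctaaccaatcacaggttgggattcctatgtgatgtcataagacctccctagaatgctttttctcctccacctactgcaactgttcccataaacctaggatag

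Tecrl (GRCr8 chr14:25086680-25086929, plus strand): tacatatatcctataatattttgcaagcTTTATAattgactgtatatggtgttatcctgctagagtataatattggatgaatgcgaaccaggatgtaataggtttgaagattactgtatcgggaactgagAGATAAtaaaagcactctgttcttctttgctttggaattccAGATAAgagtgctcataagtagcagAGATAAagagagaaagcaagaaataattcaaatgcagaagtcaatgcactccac

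Hcn2 (GRCr8 chr7:10639458-10639707, minus strand): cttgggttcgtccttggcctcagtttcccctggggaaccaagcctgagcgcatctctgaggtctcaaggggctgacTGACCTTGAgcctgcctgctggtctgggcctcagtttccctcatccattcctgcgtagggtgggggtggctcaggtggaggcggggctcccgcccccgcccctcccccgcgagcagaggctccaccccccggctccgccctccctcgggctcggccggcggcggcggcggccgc

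Kcnj2 (GRCr8 chr10:96559975-96560224, plus strand): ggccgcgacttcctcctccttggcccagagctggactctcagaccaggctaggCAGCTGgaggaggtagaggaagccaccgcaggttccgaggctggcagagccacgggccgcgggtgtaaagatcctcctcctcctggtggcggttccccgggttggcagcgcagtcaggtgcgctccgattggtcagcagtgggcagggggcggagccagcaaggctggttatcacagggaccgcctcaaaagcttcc

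The Pln window held none of the 8 motifs. In Tecrl the capitals mark 1 match to TATAAA on the reverse strand and 3 to AGATAA, which resembles the motif of cardiac zinc-finger factors of the GATA family. In Hcn2 they mark TNAAGGTCA, the extended half-site bound by estrogen-related receptors, on the reverse strand, and in Kcnj2 the E-box CAGCTG. TNAAGGTCA was found in 1 of 27 windows of these genes (3.7%) and in 1% of all 27457 windows of the table, and AGATAA in 4 of 27 (14.8%) and 10%. CAGCTG was found in 11.1% and 11.9%, TATAAA in 3.7% and 13.1%, and ACGTG, of the hypoxia response, in 11.1% and 16.9%. The PPAR-type pair of AGGTCA motifs spaced by 1 base, the MEF2-type motif in which CTA stands 4 bases before TAG, and TGACGTCA of cAMP response were in 0 of the 27, and in 0.0546%, 3.43% and 1.7% of all windows. A match describes letters in a window and is no measured binding.

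Genes of the calcium store fell together in the injured tissue. All 12 tested were lower in MI24h, MI1h_R and MI6h_R than in Sham by edgeR's quasi-likelihood test at an adjusted p under 0.05, with median log2 fold changes of -3.33, -3.27 and -3.85. Among all 35 genes, 29 were called lower and 2 higher in MI24h, where 26.2% of all genes tested were called lower and 28% higher. In MI1h_R 29 were lower and 1 higher (24.1% and 25.4% of all genes), and in MI6h_R 29 and 1 (28% and 29.3%). The medians over the 35 genes were -2.83, -2.44 and -2.63, against 0.07, 0.06 and 0.06 over all genes tested. These comparisons share the Sham libraries. In each of the 3, 29 of the 35 genes had every injured library below every Sham library, which held for 26.1%, 24.5% and 28.4% of all genes. The cardiomyocyte markers fell in the same libraries, with 10, 9 and 10 of 10 called lower and medians of -3.16, -2.68 and -3.85, and their part in the genes' fall was not tested.

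Pln encodes phospholamban, the small protein that restrains the calcium pump. It measured 2738, 2820.2 and 4086 CPM in the Sham libraries, 36.9, 86.1 and 56.7 CPM in MI24h, 188, 216 and 118 CPM in MI1h_R, and 19.2, 6.44 and 208 CPM in MI6h_R. Every Sham library was above every injured one, and 1 of the MI6h_R libraries, numbered 31, was far above the other 2. The fold against Sham was 53.6 lower in MI24h (log2 fold change -5.74 ± 1.07 SE, edgeR adjusted p 0.000207). With F, Pln measured 26.6, 43.0 and 44.0 CPM in MI24h_F, 214, 354 and 510.0 CPM in MI1h_F, and 458, 141 and 29.0 CPM in MI6h_F. MI1h_F lay above MI24h_F without overlap, and MI6h_F spread over both.

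Atp2a2 encodes SERCA2, the pump itself. Its level was 14220.1, 9891 and 16688 CPM in Sham, 1000.03, 1262 and 1111 CPM in MI24h, 1295, 1308 and 1252 CPM in MI1h_R, and 709, 672 and 1557 CPM in MI6h_R. The injured libraries lay close to each other and well below Sham, 12.1-fold lower in MI24h (log2 fold change -3.60 ± 0.38 SE, edgeR adjusted p 8.74e-07). With F it measured 873, 955 and 897 CPM in MI24h_F, 1375, 2009 and 2541 CPM in MI1h_F, and 1939, 1132 and 707 CPM in MI6h_F.

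**Figure D1:**
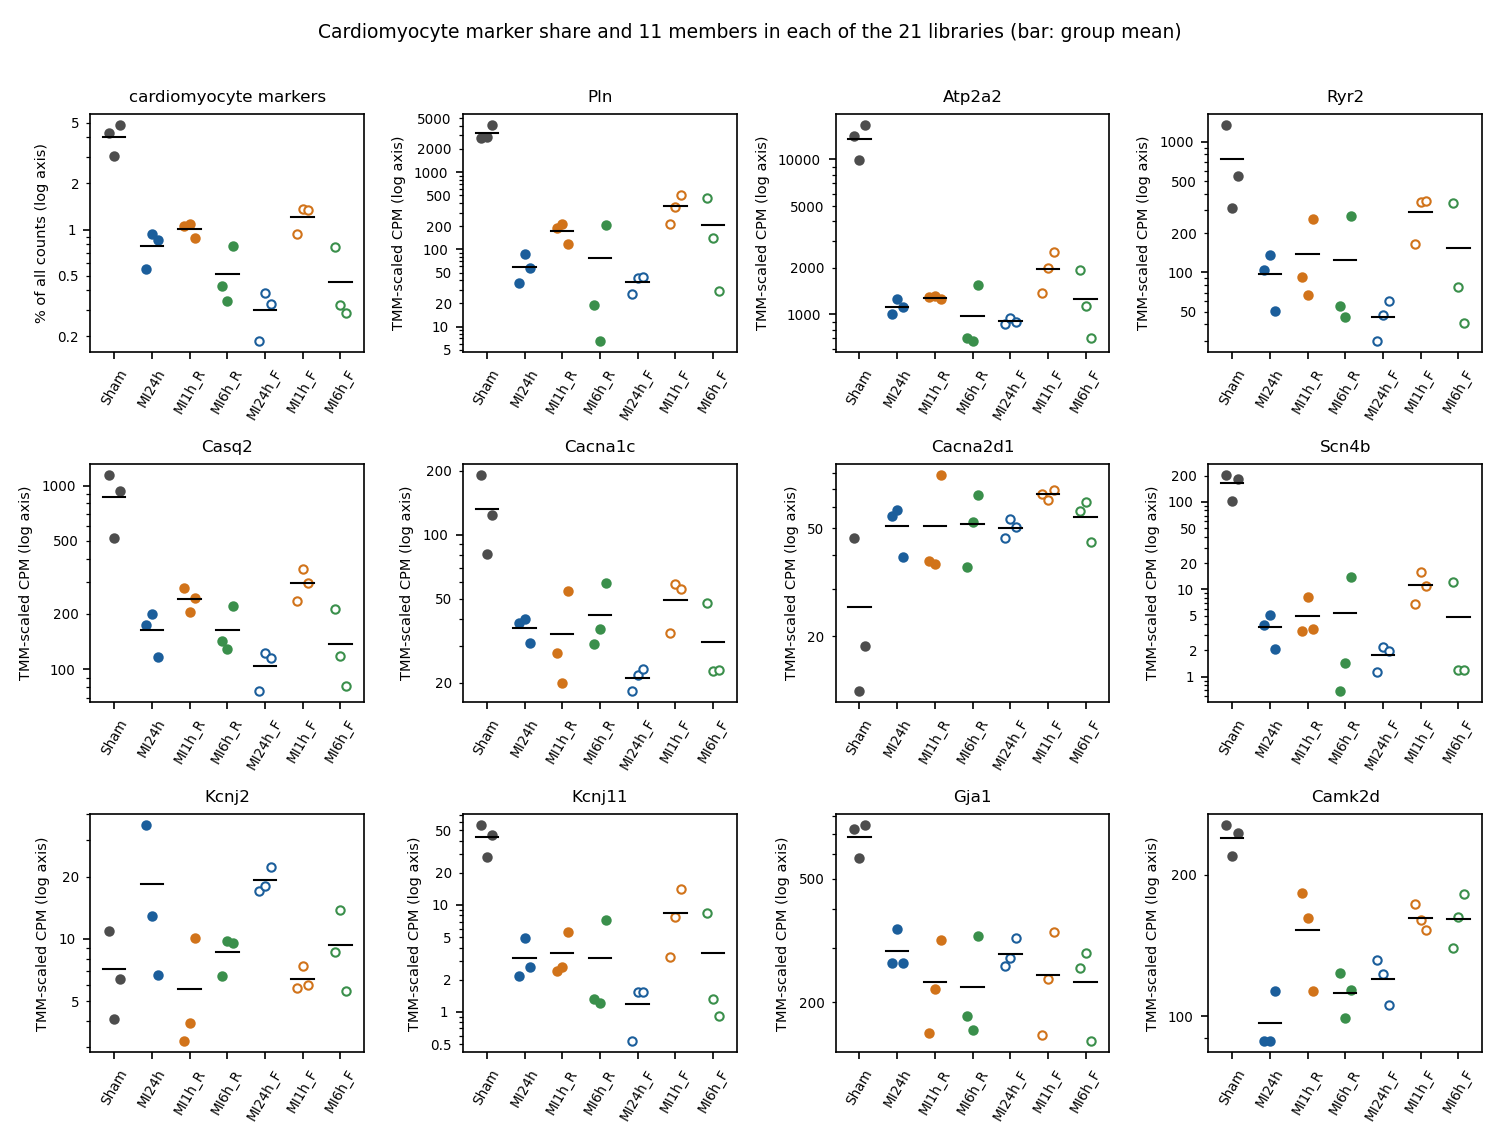
The share of the 10 cardiomyocyte markers in all counts (%, log axis) and the TMM-scaled CPM (log axis) of 11 genes in each of the 21 libraries, with closed points for groups without F, open points for groups with F and a bar at each group mean. Pln and Atp2a2 lie far below Sham in every injured library, Cacna2d1 lies above most Sham values, and Kcnj2 is high in MI24h_F at 17.1 to 22.4 CPM.

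The balance of Pln to its target pump also differed between libraries. Per 100 counts of Atp2a2, Pln had 19.2, 28.5 and 24.5 counts in Sham, 3.69, 6.82 and 5.10 in MI24h, 14.5, 16.5 and 9.46 in MI1h_R, and 3.05, 4.50 and 4.90 in MI24h_F. The early reperfused group with F had 15.6, 17.6 and 20.1. The late reperfused groups had 2.71, 0.959 and 13.3 in MI6h_R and 23.6, 12.5 and 4.11 in MI6h_F. The ratio in both ligated groups lay below that of Sham and of both early reperfused groups in every library, while the late reperfused libraries spread from below the ligated ones to within Sham. This ratio was chosen after its values were seen and was not tested.

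Ryr2, the calcium release channel, measured 1341, 312 and 543 CPM in Sham, 104, 135 and 50.9 CPM in MI24h, 91.9, 66.8 and 258 CPM in MI1h_R, and 55.2, 45.8 and 272 CPM in MI6h_R. No library of these 3 groups reached Sham, and Sham 11 was far above the other Sham libraries. With F it measured 29.7, 47.4 and 60.7 CPM in MI24h_F, 165, 347 and 355 CPM in MI1h_F, and 341, 77.9 and 41.04 CPM in MI6h_F, so that MI1h_F and MI6h_F overlapped with Sham. Its log2 fold change in MI24h was -2.92 ± 0.82 SE (edgeR adjusted p 0.00588). Without Sham 11 the fall in MI1h_R and MI6h_R was no longer called, at -1.61 (adjusted p 0.107) and -1.77 (adjusted p 0.0688), nor in MI6h_F, at -1.47 (0.127). The calls were also lost without MI1h_R library 11 or 31 (adjusted p 0.0706 and 0.0783) and MI6h_R library 11 or 21 (0.0524 and 0.0554).

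Casq2, which encodes the calcium-binding calsequestrin inside the store, fell less. It measured 1139.9, 519 and 933 CPM in Sham and 175, 199 and 117 CPM in MI24h, 5.28-fold lower (edgeR adjusted p 2.01e-05), and 276, 204 and 244 CPM in MI1h_R. Hrc, another calcium-binding protein of the store, was 659.6, 492 and 869 CPM in Sham and 35.9, 34.7 and 41.5 CPM in MI24h, 18.01-fold lower (edgeR adjusted p 5.4e-06). Neither gene overlapped between the groups.

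Tecrl, whose mutations in people cause an arrhythmia of the calcium release type, fell furthest of the 35 genes in MI24h. It measured 72.5, 30.7 and 59.5 CPM in Sham and 0.364, 1.22 and 0.411 CPM in MI24h, a log2 fold change of -6.30 ± 0.94 SE (edgeR adjusted p 2.24e-05). In MI1h_R it was 1.87, 1.89 and 1.65 CPM, and in MI6h_R 0.291, 0.301 and 3.36 CPM. All were below Sham, and only the MI6h_R library 31 passed 2 CPM.

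The remaining store genes, in MI24h against Sham, were Jph2, which ties the store to the surface membrane, at -1.76, Trdn, which anchors the release channel, at -3.80, Asph at -2.07, Srl at -3.06, Tmem38a, a potassium channel of the store membrane, at -3.99 and S100a1 at -2.93 on the log2 scale. All 6 passed edgeR's test, with the highest adjusted p, 0.0151, for S100a1, a gene with 229 counts over all libraries. S100a1 lost its call without MI24h library 21 or 41, at adjusted p 0.0503 and 0.0573. Sln, an inhibitor of the pump in atrial muscle, had 0, 2 and 5 counts in the Sham libraries and 0 in the 18 injured ones, which gives no fold.

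Calcium entry and exchange genes split. Cacna1c, the pore of the L-type channel, measured 191, 80.9 and 124 CPM in Sham and 38.4, 40.0 and 30.9 CPM in MI24h, with no overlap. It fell by 1.86, 1.96 and 1.66 on the log2 scale in MI24h, MI1h_R and MI6h_R (edgeR adjusted p 0.000581, 0.000457 and 0.00129). On TPM it was not called in MI24h (-0.67, adjusted p 0.112) or MI6h_R (-0.38, 0.355), nor with library size alone in MI6h_R (-0.82, 0.0752). Cacnb2, its beta subunit, fell by 2.83, 2.51 and 3.02. Cacna2d1, the alpha2delta subunit that brings the pore to the membrane, went the other way.

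Cacna2d1 measured 46.1, 12.6 and 18.4 CPM in Sham, 55.5, 58.2 and 39.2 CPM in MI24h, 37.9, 37.1 and 78.4 CPM in MI1h_R, and 36.0, 52.9 and 66.4 CPM in MI6h_R. Sham 11 overlapped with each of these 3 injured groups, and the other Sham libraries lay below all of them. In MI1h_F it measured 66.9, 63.7 and 69.4 CPM, above every Sham library. The gene was called higher in MI24h, MI1h_R, MI6h_R, MI24h_F, MI1h_F and MI6h_F, by 0.99, 0.99, 1.009, 0.96, 1.37 and 1.10 on the log2 scale, with edgeR adjusted p of 0.0314, 0.0331, 0.0264, 0.0314, 0.0056 and 0.0173. These calls were thin. Without Sham 31 they were lost in MI24h, MI1h_R, MI6h_R, MI24h_F and MI6h_F (0.68 to 0.81 on the log2 scale, adjusted p 0.0697 to 0.125), and likewise without Sham 41 (0.81 to 0.93, adjusted p 0.0724 to 0.124). Single injured libraries whose removal ended the call in their own group were MI24h 11 and 21, MI1h_R 41, MI6h_R 21 and 31, MI24h_F 2 and 4, and MI6h_F 2, with estimates from 0.549 to 1.002. Slc8a1, the sodium-calcium exchanger, measured 120.5, 29.4 and 41.6 CPM in Sham and 49.4, 46.6 and 37.8 CPM in MI24h, and was called by edgeR in none of the 6 comparisons with Sham. Its estimates were -0.69 to 0.17, a direction that depends on scaling, since on TPM it was called higher than Sham in MI6h_R by 1.17 (adjusted p 0.0182), in MI1h_F by 1.45 (0.00552) and in MI6h_F by 1.05 (0.0342). Without Sham 11 it was called higher in MI1h_F, by 1.03 (adjusted p 0.00984), and without Sham 31 lower in MI24h_F, by -0.98 (0.0259).

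Of the sodium genes, Scn4b, the beta4 subunit of the cardiac sodium channel, was among those that fell furthest. It measured 203, 104 and 182 CPM in Sham, 3.86, 5.07 and 2.06 CPM in MI24h, 3.34, 8.13 and 3.55 CPM in MI1h_R, and 0.679, 1.44 and 13.8 CPM in MI6h_R. All injured libraries were far below Sham, 44.2-fold in MI24h (log2 fold change -5.47 ± 0.98 SE, edgeR adjusted p 0.000145). Fxyd1, phospholemman, which regulates the sodium pump, measured 21.9, 33.4 and 37.2 CPM in Sham and 3.50, 4.34 and 4.94 CPM in MI24h, 7.22-fold lower (edgeR adjusted p 1.53e-05).

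Among the 11 potassium genes, 9 were called lower in each of MI24h, MI1h_R and MI6h_R, with medians of -2.09, -2.42 and -2.63 on the log2 scale. Kcna5, the channel of the ultrarapid current, fell by 5.64 in MI24h, from 32.8, 9.28 and 25.8 CPM in Sham to 0.364, 0.489 and 0.480 CPM (edgeR adjusted p 4.07e-06). Kcnj3, a subunit of the acetylcholine-activated channel, fell by 4.43, and its partner Kcnj5 by 1.82. Kcnh2 and Kcnq1, which carry the rapid and slow delayed rectifier currents, fell by 4.03 and 1.92, Kcnd3, of the transient outward current, by 1.67 and Kcnk3, a background channel, by 2.09. The calls of Kcnj5 (-1.44, adjusted p 0.0945) and Kcnd3 (-1.15, adjusted p 0.0938) in MI24h were lost without Sham 11, and that of Kcnj5 also without MI24h library 11 or 41 (0.0718 and 0.0807). On TPM, Kcnq1 (-0.79, adjusted p 0.074), Kcnk3 (-0.92, 0.0737), Kcnd3 (-0.28, 0.201) and Kcnj5 (-0.65, 0.275) were not called in MI24h by limma. With library size alone Kcnd3 (-0.94, 0.133) and Kcnj5 (-1.099, 0.149) were not called either.

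The ATP-sensitive potassium channel is built of a pore and a sulfonylurea receptor. Kcnj11, the pore, was 55.6, 27.8 and 45.1 CPM in Sham and 2.19, 4.89 and 2.61 CPM in MI24h, and fell by 3.72 on the log2 scale (edgeR adjusted p 0.000824). Abcc8, the sulfonylurea receptor SUR1, fell by 4.29, from 30.7, 27.8 and 35.4 CPM to 0.583, 3.18 and 0.960 CPM. Abcc9, the receptor SUR2, measured 49.4, 6.19 and 9.54 CPM in Sham and 29.4, 25.3 and 6.86 CPM in MI24h. Its groups overlapped, and its log2 fold change of -0.08 ± 0.71 SE was not called (edgeR adjusted p 0.93).

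Kcnj2 encodes Kir2.1, which holds the resting voltage. It measured 10.9, 4.10 and 6.36 CPM in Sham, 35.5, 12.9 and 6.72 CPM in MI24h, 3.19, 3.92 and 10.1 CPM in MI1h_R, and 6.59, 9.75 and 9.54 CPM in MI6h_R. With F it was 17.1, 18.1 and 22.4 CPM in MI24h_F, 5.76, 7.40 and 5.97 CPM in MI1h_F, and 8.63, 13.8 and 5.58 CPM in MI6h_F. The 3 MI24h_F libraries were above all Sham libraries, while the MI24h libraries were spread, with 1 at the level of Sham. It was called higher than Sham in both groups of permanent ligation, by 1.37 ± 0.52 SE in MI24h (edgeR adjusted p 0.0342) and 1.43 ± 0.52 SE in MI24h_F (0.0242), and in none of the 4 reperfused groups, although on TPM it was called in MI6h_R and MI6h_F, at 1.31 and 1.24. Without MI24h library 11 the first fell to 0.47 (adjusted p 0.44), and both were lost without Sham 31 (adjusted p 0.116 and 0.0827) or Sham 41 (adjusted p 0.0929 and 0.0644), the second also without MI24h_F library 4 (adjusted p 0.0641).

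The pacemaker channels differed. Hcn2 measured 165, 94.5 and 192 CPM in Sham and 9.04, 10.3 and 5.28 CPM in MI24h, and fell by 4.19, 4.49 and 4.49 on the log2 scale in MI24h, MI1h_R and MI6h_R (edgeR adjusted p 7.63e-06, 8.2e-06 and 3.75e-06). Hcn4, the channel of the sinus node, was 7.65, 0.455 and 4.28 CPM in Sham and 2.40, 1.28 and 0.891 CPM in MI24h. Its groups overlapped, and it was called in none of the 6 comparisons with Sham.

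Gja1 encodes connexin 43. It measured 724, 581 and 744 CPM in Sham, 268, 344 and 268 CPM in MI24h, 159, 221 and 318 CPM in MI1h_R, and 181, 163 and 327 CPM in MI6h_R, all below Sham. It fell by 1.22 ± 0.32 SE, 1.55 ± 0.32 SE and 1.61 ± 0.32 SE on the log2 scale (edgeR adjusted p 0.00326, 0.00059 and 0.000327), less than any of the 12 calcium store genes in MI24h. That difference between genes was not tested. On deposited TPM the estimate was -0.21 in MI24h, -0.70 in MI1h_R and -0.47 in MI6h_R and was not called, and with library size alone it was -0.47 in MI24h and not called.

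Of the signalling and anchoring genes, Camk2d, the main calcium-dependent kinase of heart muscle, measured 255, 219 and 245 CPM in Sham, 88.5, 88.6 and 113 CPM in MI24h, 183, 162 and 113 CPM in MI1h_R, and 124, 99.4 and 114 CPM in MI6h_R. It was called lower by 1.31, 0.65 and 1.09 on the log2 scale, a direction that depends on scaling: with library size alone MI1h_R was 0.105 above Sham, and on TPM MI1h_R and MI6h_R were 0.275 and 0.22 above it. Adrb1, the beta1 receptor, fell from 32.1, 30.8 and 27.2 CPM in Sham to 5.44, 3.85 and 3.998 CPM in MI1h_R, by 2.76 ± 0.58 SE (edgeR adjusted p 0.000751), and by 1.42 in MI24h (adjusted p 0.0361), a call lost without any single library of either group (adjusted p 0.0513 to 0.103). Ank2, the anchor ankyrin-B, was not called by edgeR in these 3 comparisons, with adjusted p of 0.0828, 0.0502 and 0.111. This depended on processing. With a length trend removed edgeR called it lower in all 3, at -1.154, -1.255 and -1.104 (adjusted p 0.0355, 0.0258 and 0.0413). DESeq2 called it lower in MI24h and MI1h_R (adjusted p 0.0444 and 0.0189), and edgeR with median-of-ratios factors in MI1h_R (0.0403). In MI24h_F it was called lower by 1.41 (0.0271), and without Sham 11 it was at -0.33 (0.551).

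**Figure D2:**
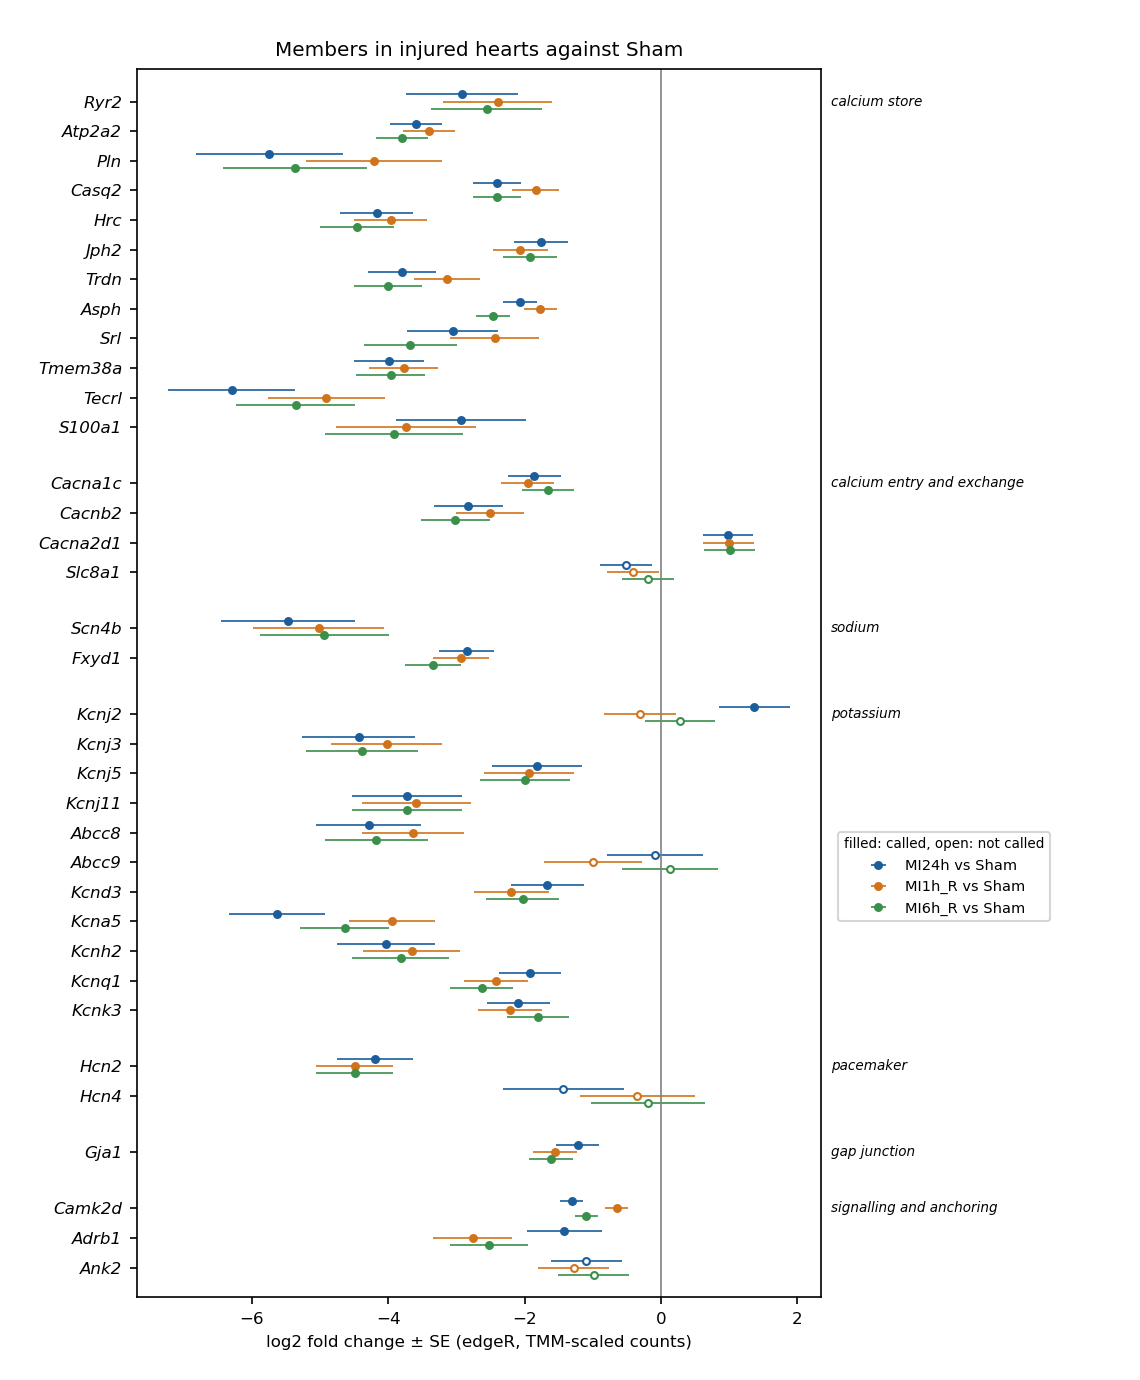
Log2 fold change against Sham, with its standard error, of the 35 genes by role in MI24h, MI1h_R and MI6h_R; filled points passed edgeR's test. The calcium store lies between -1.76 and -6.30 in MI24h, while Cacna2d1 and Kcnj2 lie to the right of 0 at 0.99 and 1.37.

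Scaling bears on all comparisons with Sham. With library size alone, 27, 27 and 24 of the 35 genes were called in MI24h, MI1h_R and MI6h_R, the median of all genes in MI24h moved from 0.07 to 0.80, and the share of lower calls among all genes called went from 48.3% to 18.8%. On TPM, 21, 26 and 25 genes were called (19, 25 and 22 lower), the median over the 35 genes in MI24h was -1.62 and that of all genes 0.83, with 14.1% of all genes called being lower. There Jph2 (-0.65, adjusted p 0.157) and S100a1 (-2.02, adjusted p 0.129) lost their calls in MI24h by limma, Srl in MI1h_R (-1.40, 0.053) and Jph2 in MI6h_R (-0.65, 0.152). The calcium store genes were below 0 with TMM, median-of-ratios factors, library size alone and TPM, but not all against the marker sum described next. In the groups with F, 30 genes were called lower and 2 higher in MI24h_F (30.1% and 30.7% of all genes), 25 and 1 in MI1h_F (24.2% and 23.9%), and 29 and 1 in MI6h_F (28.5% and 28.6%), with medians of -3.404, -1.62 and -2.60. Ryr2, Srl and S100a1 were the store genes not called in MI1h_F, at -1.34 (adjusted p 0.165), -1.49 (0.0572) and -2.04 (0.0697).

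To ask how far these genes moved beside the cardiomyocyte markers, the fit was repeated with the summed counts of those 10 markers as library size. Which cells the counts of the 35 genes came from was not tested. On this scale most genes rise, and 90.6% of all genes tested were called higher in MI24h than in Sham and 1.06% lower. Of the 35 genes, 8 were called lower and 16 higher in MI24h. In MI1h_R 6 were lower and 10 higher (0.801% and 89.3% of all genes), and in MI6h_R 3 and 17 (0.537% and 94.4%). In MI24h_F 4 were lower and 17 higher (0.613% and 95.5%), in MI1h_F 2 and 16 (0.358% and 87.9%), and in MI6h_F 2 and 20 (0.298% and 95.2%). The store genes spread to both sides of the markers, with 3 called lower and 2 higher in MI24h, 4 and 2 in MI1h_R, and 2 and 3 in MI6h_R, and medians of -0.18, -0.49 and -0.11, against 1.08, 0.42 and 1.12 for the potassium genes.

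Scn4b fell below the markers in all 6 injured groups, by 2.29, 2.28, 1.48, 2.00, 1.35 and 1.51 on the log2 scale in MI24h, MI1h_R, MI6h_R, MI24h_F, MI1h_F and MI6h_F. Its calls in MI6h_R, MI1h_F and MI6h_F were lost without Sham 11, at -1.26, -1.13 and -1.28, and without MI6h_R library 11 or 21, MI1h_F library 1 or 5, or MI6h_F library 2 or 4 (-1.002 to -1.26). Pln fell below them by 2.68 ± 0.63 SE in MI24h, 1.48 in MI1h_R, 2.03 in MI6h_R and 1.88 in MI24h_F (edgeR adjusted p 0.000216, 0.0229, 0.00257 and 0.00466), and was at -0.68 in MI1h_F and -0.30 in MI6h_F, where it was not called. The call in MI1h_R was lost without Sham 31 (-1.30) or MI1h_R library 41 (-1.38). The markers themselves did not move as 1 level. Against their own sum the 10 markers ran from -0.76 to 1.002 in MI24h and from -1.23 to 3.19 in MI1h_R. In MI6h_R they ran from -0.64 to 0.91 and in MI24h_F from -0.84 to 3.04. In MI1h_R 1 marker was called lower and 3 higher. Tecrl fell by 3.23, 2.11 and 1.84 in MI24h, MI1h_R and MI6h_R, and Kcna5 by 2.48 in MI24h. Atp2a2 lay near the markers, at -0.44, -0.60 and 0.02, and was not called in any injured group. With the geometric mean of the markers as reference it was called lower in MI1h_R, at -0.97 (adjusted p 0.0209).

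Other genes rose against the markers. Cacna2d1 was higher by 4.16, 3.85 and 4.93, Slc8a1 by 2.65, 2.46 and 3.75, Abcc9 by 3.16, 1.96 and 4.08, and Gja1 by 1.90, 1.26 and 2.20 in MI24h, MI1h_R and MI6h_R, all called. Kcnj2, Hcn4, Camk2d and Ank2 were also called higher in all 3. With the geometric mean of the markers the MI1h_R calls of Abcc9 (1.31, adjusted p 0.0927), Gja1 (0.86, 0.064) and Ank2 (1.04, 0.0923) were lost. Most genes tested did the same on this scale.

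**Figure D3:**
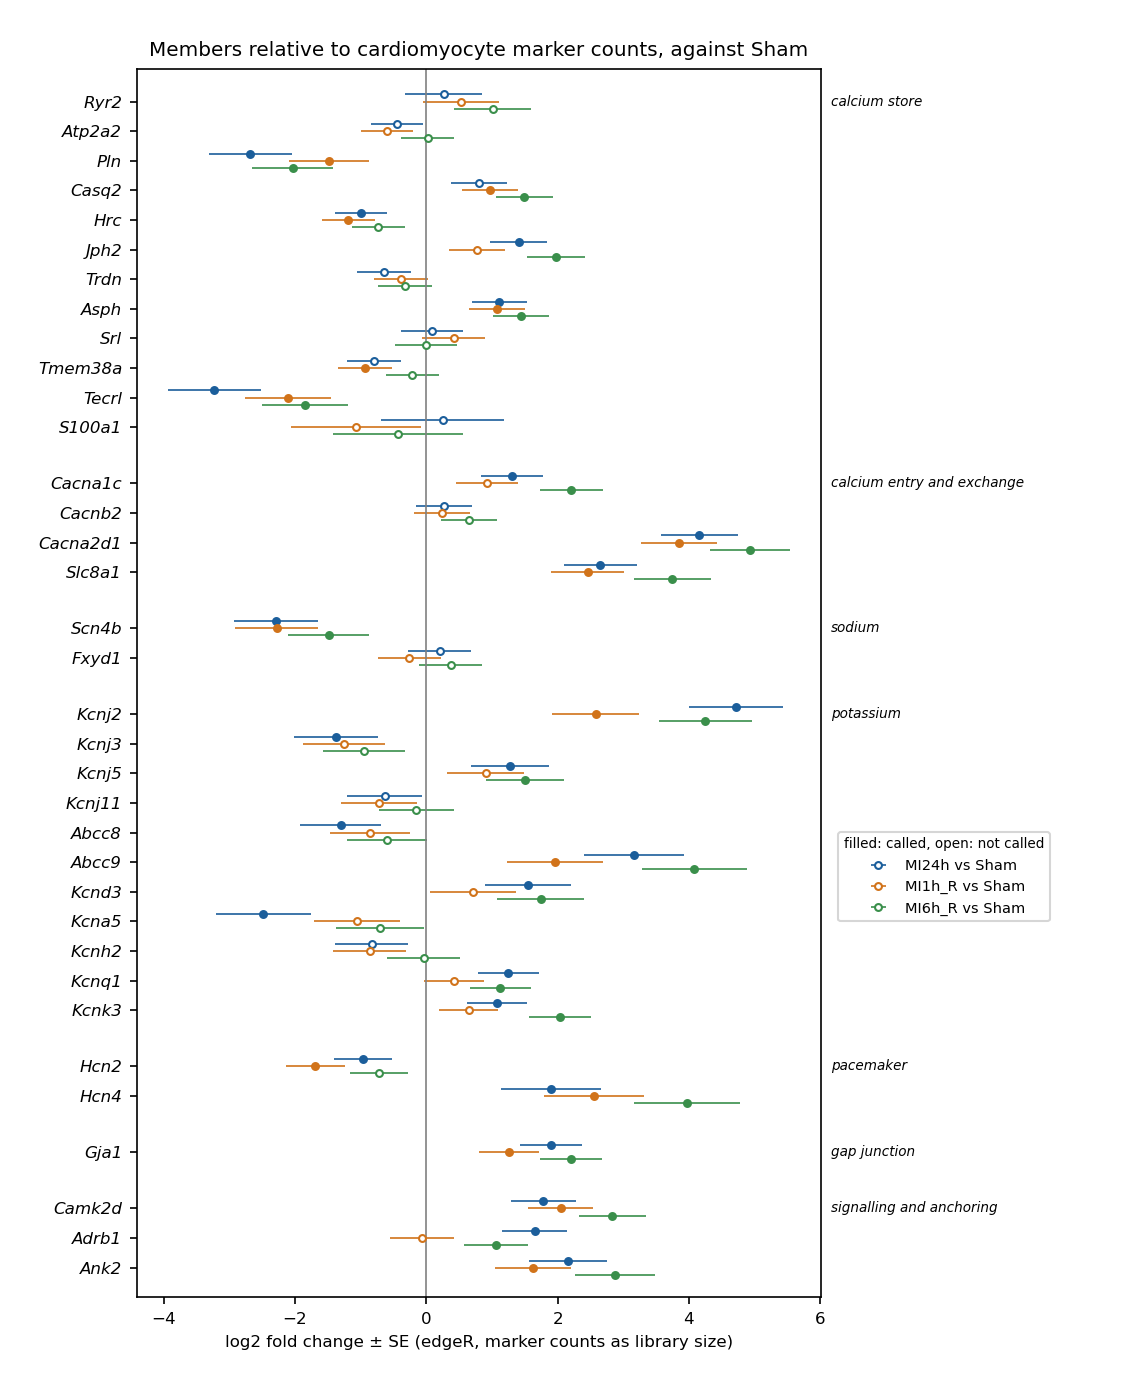
Log2 fold change against Sham, with its standard error, when the summed counts of the cardiomyocyte markers are the library size, for the 35 genes by role in MI24h, MI1h_R and MI6h_R; filled points passed edgeR's test. Pln, Tecrl and Scn4b lie left of 0 in all 3 groups, Atp2a2 between -0.60 and 0.02, and Cacna2d1, Slc8a1 and Kcnj2 far to the right.

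Other genes of the same pathways were counted from lists of 121 symbols, of which 94 had a row and 81 were tested. In MI24h 31 were called lower and 18 higher than Sham (median log2 fold change -0.60), in MI1h_R 38 and 18 (-0.68), and in MI6h_R 35 and 19 (-0.64). These counts stand beside 26.2% lower and 28% higher among all genes in MI24h, 24.1% and 25.4% in MI1h_R, and 28% and 29.3% in MI6h_R. Of 13 other sodium genes, 9 fell and 2 rose in MI24h.

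Of 11 other potassium genes, 4 fell and 3 rose in MI24h, near the shares of all genes. Kcnk2, a stretch-sensitive background channel, fell by 5.25, and Kcne3, an accessory subunit, rose by 3.56. Of 12 other store genes, 4 fell and 2 rose. Those that rose were Calr, a calcium-binding protein of the general endoplasmic reticulum, by 1.24, and Fkbp1a, which binds release channels, by 0.84. Of 5 other cation channels 3 rose and 1 fell, and Trpm2, known from white blood cells, rose by 3.04. Among 8 disc genes, Dsp, desmoplakin, fell by 2.66 and Gjb2, connexin 26, rose by 3.26. Of 20 other signalling genes 7 fell, among them Prkaca, the catalytic subunit of protein kinase A, by 1.91, and 3 rose.

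Reperfusion after 1 h was compared with ligation left in place, first without F. Of the 35 genes 1 was called, Camk2d, higher in MI1h_R than in MI24h by 0.66 ± 0.17 SE (edgeR adjusted p 0.0349), where 1.51% of all genes were called higher and 2.81% lower. Its groups overlapped, at 113 CPM in a library of each, and the call was lost without MI24h library 11 or 21 (adjusted p 0.21 and 0.0865) or MI1h_R library 11 or 31 (0.164 and 0.129). At an unadjusted p under 0.05 there were 4 genes, and DESeq2 called 2, adding Kcnj2. Kcnj2 was -1.67 ± 0.52 SE by edgeR (adjusted p 0.0744), and -2.06 (0.0308) without MI24h library 41 and -2.36 (0.0233) without MI1h_R library 41. Pln, at 118 to 216 CPM in MI1h_R and 36.9 to 86.1 CPM in MI24h, did not overlap, but its 1.54 ± 0.90 SE was not called (adjusted p 0.342). The median over the 35 genes was 0.19.

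With F, early reperfusion went with higher levels. In MI1h_F 21 of the 35 genes were called higher and 1 lower than in MI24h_F, where 8.87% of all genes were called higher and 6.74% lower, and the median was 1.67 against 0.03 over all genes. In 30 genes every MI1h_F library was above every MI24h_F library, which held for 24.1% of all genes. Of the store genes 11 of 12 rose, with a median of 1.77, of the entry and exchange genes 2 of 4, and of the potassium genes 6 of 11. The summed cardiomyocyte markers were 8225 to 12810 CPM in MI1h_F and 1777 to 3652 CPM in MI24h_F, and 8 of the 10 rose with a median of 1.85. Of 6 fibroblast markers 4 rose, and of 6 neutrophil markers 4 fell. The part of these in the genes' rise was not tested.

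Abcc8 had the largest estimate, from 0.227, 0.381 and 0.294 CPM in MI24h_F to 2.49, 6.46 and 4.60 CPM in MI1h_F, by 3.86 ± 0.89 SE on the log2 scale (edgeR adjusted p 0.00967). It is a gene of few counts there, with 3, 6 and 4 in the MI24h_F libraries. Pln rose 9.49-fold, by 3.25 ± 0.96 SE (0.0289), Kcnj11 by 2.78 ± 0.83 SE (0.0312) and Ryr2, from 29.7, 47.4 and 60.7 CPM to 165, 347 and 355 CPM, by 2.65 ± 0.82 SE (0.0349). Atp2a2 rose by 1.12 ± 0.35 SE (0.0361). None of these overlapped between the groups. Kcnj2 alone fell, by 1.59 ± 0.52 SE (0.0456), while Gja1 (-0.24 ± 0.31 SE) and Abcc9 (0.02 ± 0.70 SE) were not called.

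The number of calls rested on single libraries. It was 4 without MI24h_F library 1, 11 without library 2, 7 without library 4, and 7 without MI1h_F library 4 or 5, against 22. Without MI24h_F library 1, Pln was 3.05 (adjusted p 0.116) and Ryr2 2.42 (0.136), so directions held while calls did not. Kcnj2 lost its call without any single library of either group (-1.46 to -1.71, adjusted p 0.0856 to 0.126). A fit of only these 6 libraries called 30. Against the cardiomyocyte markers, 10 genes were lower in MI1h_F than in MI24h_F and 1, Abcc8, higher, where 86% of all genes were lower and 0.23% higher.

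**Figure D4:**
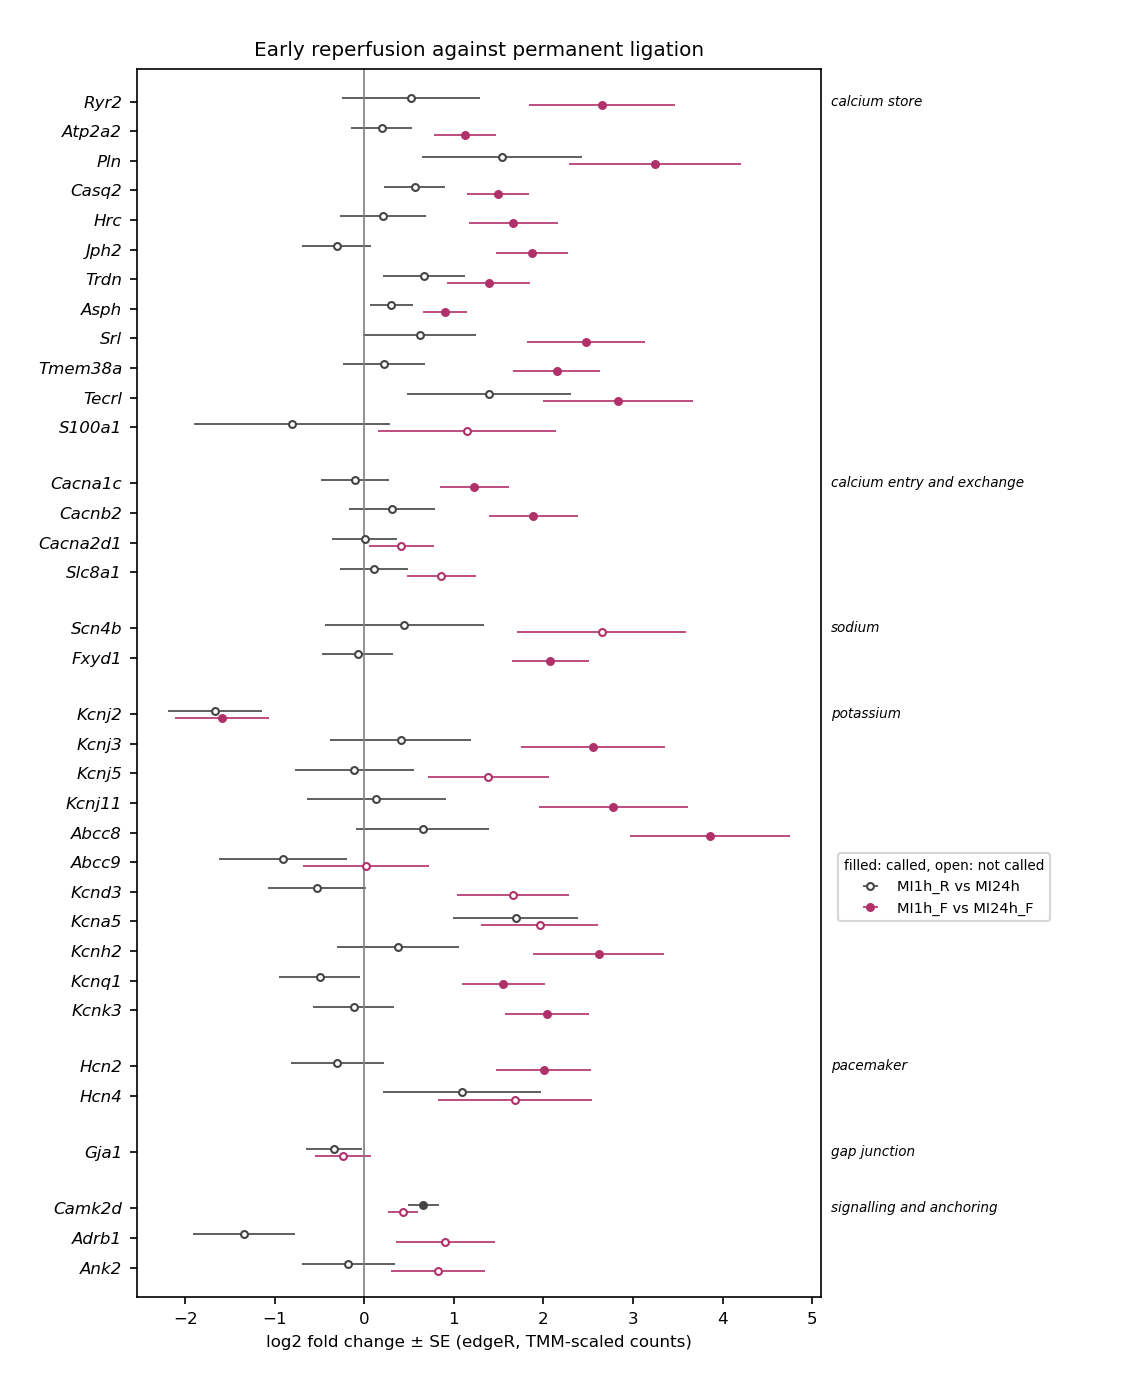
Log2 fold change, with its standard error, of early reperfusion against permanent ligation for the 35 genes by role, without F (MI1h_R against MI24h, grey) and with F (MI1h_F against MI24h_F, pink); filled points passed edgeR's test. With F 33 of 35 genes lie to the right of 0 and Kcnj2 lies to the left in both.

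The difference between the early reperfusion effects with and without F was tested as an interaction. In edgeR 0 of the 35 genes and 0% of all genes were called, so the 2 effects were not shown to differ. The median difference was 1.58, 34 of 35 genes were above 0, 14 had an unadjusted p under 0.05, and DESeq2 called 3. The 35 genes share their libraries, so their directions are not independent. Against the cardiomyocyte markers the median difference was -0.07, with 19 genes below 0 and 16 above, where the median over all genes was -1.62. For late reperfusion against permanent ligation, and for early against late, the same test called 0 (0% and 0.00852% of all genes), with 3 and 1 genes at an unadjusted p under 0.05 and 0 by DESeq2.

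Late reperfusion, after 6 h, gave 0 calls among the 35 genes in edgeR in MI6h_R against MI24h (0.502% of all genes, either direction), MI6h_F against MI24h_F (0.485%), MI1h_R against MI6h_R (2.41%) and MI1h_F against MI6h_F (0%). At an unadjusted p under 0.05 there were 1, 12, 2 and 6 genes, and DESeq2 called 0, 1, 0 and 0. The 6 h groups were uneven. MI6h_R library 31 and MI6h_F library 1 were high in most muscle genes, with Pln at 208 against 19.2 and 6.44 CPM, and at 458 against 141 and 29.0 CPM. Without MI6h_F library 1, 3 genes were called between MI1h_F and MI6h_F, and without MI1h_R library 41 or MI6h_R library 31, 2 and 1 between MI1h_R and MI6h_R.

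F itself was compared at each length of ligation. Under permanent ligation 3 of the 35 genes were lower with F and 0 higher, where 7.78% of all genes were lower and 5.19% higher. The count of genes called lower is thus near the share of all genes. In 14 of the 35 genes every MI24h_F library was below every MI24h library, and in 1 above, against 2464 and 1794 of all 11742 genes. By their estimates 28 genes were below 0, with a median of -0.66 against -0.07 over all genes, and DESeq2 called 6. Jph2 went from 99.97, 126 and 97.8 CPM in MI24h to 27.1, 40.2 and 36.2 CPM in MI24h_F, by -1.65 ± 0.40 SE (edgeR adjusted p 0.0139). Fxyd1 fell by 1.77 ± 0.43 SE (0.0147), from 3.50 to 4.94 CPM to 1.06 to 1.54 CPM, and Kcnd3 by 2.23 ± 0.62 SE (0.0247), from 1.58 to 2.11 CPM to 0.227 to 0.509 CPM. Kcnd3 had only 3, 8 and 5 counts in the MI24h_F libraries. The groups of these 3 genes did not overlap. Of the cardiomyocyte markers 4 of 10 were also lower, and against the marker sum 0 of the 35 genes were lower and 10 higher (0.0341% and 62.6% of all genes). Without MI24h_F library 1, 0 of the 3 were called (adjusted p 0.0803, 0.0774 and 0.119). Fxyd1 was also lost without MI24h_F library 2 (0.0501), and Kcnd3 without MI24h library 11 or MI24h_F library 4 (0.0642 and 0.0689).

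In the reperfused hearts edgeR called 0 of the 35 genes for F, after 1 h (0.0766% of all genes) and after 6 h (9.62%). At an unadjusted p under 0.05 there were 6 and 1 genes, and DESeq2 called 0 and 1. After 1 h 34 of the 35 genes were above 0 (median 0.77, against 0.002 over all genes). After 6 h 24 were above 0 (median 0.125, against -0.02), while under permanent ligation 28 were below 0 (median -0.66). An average over the 3 lengths of ligation thus combines shifts in opposite directions, and its median over the 35 genes was 0.108. Without MI6h_R library 31, 3 were called after 6 h, and without MI6h_F library 1, 1. Averaged over the 3 lengths of ligation, Camk2d was higher with F by 0.31 ± 0.10 SE (edgeR adjusted p 0.0261), where 11.3% of all genes were higher and 15.7% lower. This call was lost without MI24h library 21, MI6h_R library 21, MI24h_F library 1, MI1h_F library 1 or MI6h_F library 4 (adjusted p 0.0505 to 0.0549). It was also lost with a length trend removed (0.226, edgeR adjusted p 0.143). The count of calls was 6 without MI6h_R library 31 and 4 without MI6h_F library 1. Tecrl (1.32, adjusted p 0.0547) and Kcnd3 (-0.89, 0.0553) were not called by edgeR. DESeq2 called both, at 1.354 (adjusted p 0.0341) and -0.881 (0.041). With the length trend removed edgeR called both too, at 1.373 (0.0472) and -0.988 (0.0199).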

How the data were processed

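Bulk RNA-seq of 21 rat heart libraries was analysed. Per the submitters' processing notes, the authors aligned reads with STAR 2.7.3a to build rn7 and quantified genes with RSEM 1.3.1. The deposited expected counts are whole numbers, and the authors' TPM values are the deposited length-normalised levels. Annotation and strand setting are not given in the sources used here. Counts were fitted with edgeR 4.0.16 in R 4.3.3 (quasi-likelihood test, TMM factors, filterByExpr with a smallest count of 10), as 7 groups of 3 libraries in 1 fit of 11742 genes, with 19 comparisons and Benjamini-Hochberg adjustment over all genes, called at an adjusted p under 0.05. An exact permutation test of 3 against 3 libraries cannot go below 0.1. A second fit used the summed counts of 10 cardiomyocyte markers as library size. Total counts were 12208041 to 18393795, which limits precision for genes of few counts.

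Every member could be named, and of each list of other pathway genes at most the 3 with the smallest p in a comparison. The members and lists were chosen with earlier results of these data known. Alternatives were DESeq2 1.42.0, median-of-ratios factors, library size alone, log2(TPM + 1) and log2(TPM + 0.1) with limma 3.58.1, no filter, only the groups compared, a length trend removed, a replicate block, another marker reference, and leaving out each library. The scripts were tested on simulated data. Some results of other pathway genes are not reported here.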

Additional observations from a re-analysis of the deposited data

Results flagged for a closer look

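When levels were set against the cardiomyocyte markers, the effect of early reperfusion against permanent ligation differed between hearts with and without F for 2 genes. Gja1, connexin 43, differed by -1.71 ± 0.65 SE on the log2 scale (edgeR adjusted p 0.041), and Camk2d, the calcium-dependent kinase, by -1.90 ± 0.68 SE (edgeR adjusted p 0.0361). The test was of the difference itself. On this scale 37.9% of all genes were called lower, against these 2 of 35, and the median over all genes was -1.62. The estimates of the 2 genes lay near that median. With TMM scaling the same difference was called in 0 of the 35 genes. With the geometric mean of the markers as reference 0 genes were called, and leaving out single libraries gave 0 to 3.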

How the results depend on the processing

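Limits come first. Each group held 3 libraries, Sham libraries had lower scaling factors than all others, and genes of few counts such as S100a1 and Hcn4 were measured with wide errors. The cause of each change below was not tested.

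Against Sham, the calls in MI1h_F numbered 15 with library size alone, 17 with TPM and a pseudocount of 1 and 16 with 0.1, against 26. For MI1h_R against MI24h, DESeq2 called 2, and TPM with either pseudocount, a fit of only the groups compared and the replicate block called 0, against 1. The replicate block called 0 in MI1h_F against MI24h_F, where 22 were called. Whether replicate numbers pair the samples was not settled. Of 20 pairs of libraries that share a number, 5 correlated above 0.1, and the correlations ran from -0.538 to 0.32. Of the 12 libraries without F, 1 correlated best with a library of its own number, and of the 9 with F, 0 did. DESeq2 called 1 in MI6h_F against MI24h_F, 6 in MI24h_F against MI24h (8 in only the groups compared, against 3), 1 in MI6h_F against MI6h_R, and 3 in the early reperfusion difference with and without F. For the mean F effect the calls were 3 by DESeq2, 3 with TPM at either pseudocount, 2 in only the groups compared and 2 with the length trend removed, against 1. With the length trend removed these were Tecrl and Kcnd3, and Camk2d was not called. With the geometric mean of the markers as reference, calls were 10 in MI1h_F against Sham (18), 2 in MI1h_R against MI24h (0), 7 in MI1h_F against MI24h_F (11), 1 in MI24h_F against MI24h (10) and 0 in the early reperfusion difference (2).

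Against Sham, Camk2d turned higher with library size alone in MI1h_R, MI1h_F and MI6h_F, by 0.105, 0.242 and 0.233. On TPM with a pseudocount of 1 and 0.1 it was 0.275 and 0.281 in MI1h_R, 0.22 and 0.225 in MI6h_R, 0.112 and 0.115 in MI24h_F, 0.651 and 0.663 in MI1h_F, and 0.67 and 0.682 in MI6h_F. Slc8a1 turned higher on TPM, by 1.173 and 1.264 in MI6h_R and 1.047 and 1.134 in MI6h_F.

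Leaving out single libraries gave 27 to 29 calls in MI24h against Sham, 28 to 31 in MI1h_R, 27 to 30 in MI6h_R, 29 to 31 in MI24h_F, 21 to 26 in MI1h_F and 27 to 30 in MI6h_F. It gave 0 to 2 in MI1h_R against MI24h, 0 to 2 in MI1h_R against MI6h_R, 4 to 22 in MI1h_F against MI24h_F, 0 to 3 in MI1h_F against MI6h_F, 0 to 3 in MI24h_F against MI24h, 0 to 3 in MI6h_F against MI6h_R and 0 to 6 in the mean F effect. Relative to the markers it gave 16 to 22, 12 to 18, 16 to 19, 19 to 21, 10 to 16 and 18 to 21 against Sham in the same order of groups, 0 to 1 in MI1h_R against MI24h, 5 to 10 in MI1h_F against MI24h_F, 1 to 13 in MI24h_F against MI24h and 0 to 3 in the early reperfusion difference.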
